A study of Homo sapiens with 20 samples.

Results

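Transcript counts of cell lines that had been started from a metastatic site were compared with those of lines started from a primary biliary tract tumour. All 20 lines of the series took part, and they were divided only by the source label. The metastatic group held 7 lines, 6 from ascites (G415, HuCCT1, NOZ, OCUG-1, OZ and Sk-ChA-1) and 1 from a liver deposit (Mz-ChA-2). The primary group held the other 13 (EGI-1, HuH28, SNU-1079, SNU-1196, SNU-245, SNU-308, SNU-478, SNU-869, TFK-1, TGBC14TKB, TGBC18TKB, TGBC2TKB and TKKK). None had been treated, and all were grown in the same serum-supplemented medium before poly(A) RNA was sequenced with a stranded kit. Each line gave 1 library, so the line is the replicate and every p-value measures the spread between lines. A line is a culture expanded from 1 patient's cells, with no stroma or immune cells around it, and no metastatic line is labelled as matched to a primary line of the same patient.

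Tumours of the bile ducts, the gallbladder and the ampulla arise from a cytokeratin-positive epithelium. Cells that leave such a tumour must loosen from their neighbours and cross a basement membrane, and in the peritoneal cavity they can live suspended in ascites fluid. Adhesion molecules such as E-cadherin, matrix proteases, growth factor signalling and the developmental WNT and Notch pathways are the systems most often studied in that setting.

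Origin was tied to 2 other labels. Gallbladder lines made up 4 of the 7 metastatic lines (G415, Mz-ChA-2, NOZ and OCUG-1) and 3 of the 13 primary lines (SNU-308, TGBC14TKB and TGBC2TKB). The 3 ampullary lines were all primary. Only the repositories RIKEN and HSRRB supplied lines of both origins. For lines from the other repositories, supplier and origin cannot be told apart. Total counts ran from 10469013 to 15414668 per library and did not separate the groups (exact permutation test, adjusted p = 0.691 over 4 library measures). The epithelial marker EPCAM exceeded 80 CPM (counts-per-million, scaled by trimmed mean of M-values) in 16 of 20 lines. It was lowest in HuH28 (0.262 CPM), OCUG-1 (1.09), Mz-ChA-2 (5.56) and G415 (22.5). This 1 marker does not settle epithelial identity. SNU-1079 and Sk-ChA-1 were above 80 CPM, yet only 23 and 24 of 33 epithelial markers reached 1 CPM in them.

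The liver-derived line stood apart from the other metastatic lines. Mz-ChA-2 held the highest value of all 20 lines for 1272 genes, against 352 to 1047 in the other 6 metastatic lines and up to 1230 (TKKK) and 1152 (HuH28) among primary lines. Its best match was SNU-1079, at a correlation of 0.744 over genes, while the best matches of the ascites lines lay between 0.812 and 0.85. By the gap to the next line, its list began with the collagen gene COL2A1 (1076 CPM against 0.253) and the receptor gene ASGR2 (472 against 0.0834). Several genes of liver-secreted proteins came after them. AMBP, a plasma protein precursor, reached 1102 CPM against 4.91 in the next line. TTR, the thyroid hormone carrier transthyretin, reached 478 CPM against 0.919. TF, the iron carrier transferrin, reached 324 CPM against 1.35, and the fetal growth factor IGF2 reached 4275 CPM against 22.4. The summed level of 22 hepatocyte markers was 6648 CPM there and 1639 in OZ, with 438 as the metastatic median and 8.05 to 991 among primary lines. Not all members shared in this: 13 of the 22 were highest in Mz-ChA-2 and 17 reached 1 CPM there. CYP3A4 and G6PC1 had 0 counts in it, and CPS1 had 10 counts against 13817 in the primary line TGBC14TKB. The laminin chain gene LAMA3, a basement membrane component, had 0 counts in Mz-ChA-2 and at least 27.9 CPM in every other line. Whether this signature reflects the site of the deposit was not tested. The labels call Mz-ChA-2 a gallbladder line, and its identity was not checked here; every metastatic and gallbladder value below includes it unless it is said to be left out.

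Fewer genes were detected in the metastatic lines. Counting entries of the table with 10 or more counts, the metastatic lines had 13293 in G415, 13421 in NOZ, 13615 in OCUG-1, 13794 in Sk-ChA-1, 13902 in OZ, 14017 in HuCCT1 and 14052 in Mz-ChA-2. The primary lines ran from 13463 in SNU-245 through a median of 14156 to 15138 in TGBC2TKB. Apart from SNU-245, which was also the shallowest library, 10 of the remaining primary lines lay above all metastatic lines, HuH28 equalled Mz-ChA-2, and TFK-1 lay between HuCCT1 and Mz-ChA-2. The means were 13728 ± 294 (SD, n = 7) and 14282 ± 447 (SD, n = 13), a difference of −555 entries (exact permutation test, two-sided, p = 0.00482, adjusted p = 0.0193 over 4 measures). With every library thinned to the total of the shallowest, the difference was −585 entries (exact permutation test, p = 0.00519).

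**Figure D1:**
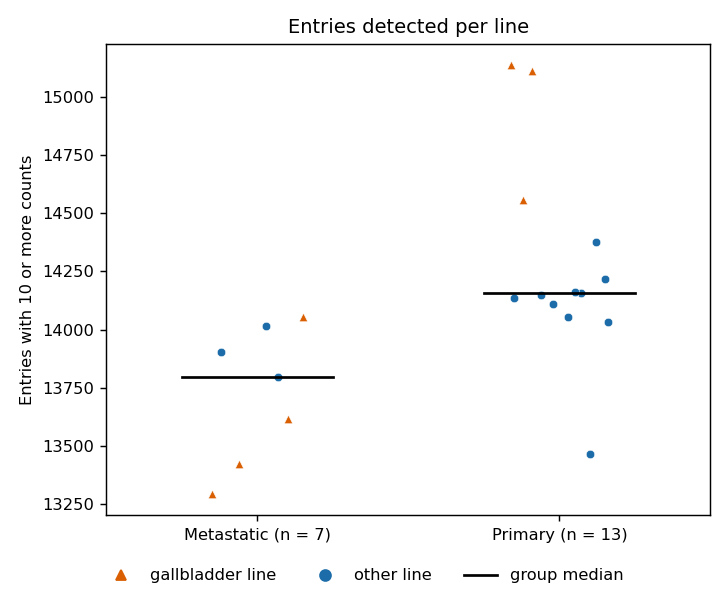
Number of table entries with 10 or more counts (vertical axis) in each metastatic and primary line; triangles are gallbladder lines, circles are lines of other sites and the bar is the group median. The 7 metastatic lines lie between 13293 and 14052, and the 3 primary gallbladder lines lie at 14559 or above.

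The difference was also measured within each site label. Among gallbladder lines the metastatic lines had 13293 to 14052 entries and the primary lines 14559 to 15138, so the origins did not overlap, and the difference was −1342 (13595 ± 332, SD, n = 4, against 14937 ± 328, SD, n = 3; exact permutation test, p = 0.0571, the smallest this design allows). Among the other lines it was −182 (13904 ± 112, SD, n = 3, against 14086 ± 239, SD, n = 10; exact permutation test, p = 0.287), and the metastatic values lay inside the primary range. The difference between the 2 site labels was itself not tested. When labels were exchanged only within gallbladder lines and within other lines, the weighted difference was −676 entries (exact permutation test, p = 0.00519, 10010 arrangements). Within RIKEN the 2 metastatic lines had 13293 and 14017 and the 4 primary lines 14163 to 15138. Within HSRRB the 3 metastatic lines had 13421 to 13902 and the 1 primary line, HuH28, 14052. Exchanging labels only within those 2 repositories gave −814 entries (exact permutation test, p = 0.0333, 60 arrangements). Protein-coding entries differed by −485, or −3.76% of the primary mean (12410 ± 272 against 12895 ± 370, SD, n = 7 and 13; exact permutation test, adjusted p = 0.00722 over 2 classes). Other RNA classes differed by −56.9 entries, or −4.72% (1149 ± 26.3 against 1205 ± 85.4), which did not pass (exact permutation test, adjusted p = 0.0998).

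Some of the genes absent from the metastatic group can be named. Of 24222 entries, 6160 had at most 3 counts in every metastatic line. Of these, 8 had 10 or more counts in at least 7 of the 13 primary lines, and all 8 are named here after their values were seen. They were BLNK; NPTX1, a neuronal pentraxin; MUC15, a membrane mucin; TMEM176A; FGF12, an intracellular fibroblast growth factor homologue; TMEM150C; the zinc transporter gene SLC30A3; and the pseudogene FAAHP1. NPTX1 reached 5725 counts and MUC15 3413 counts in single primary lines, against at most 2 in any metastatic line. The mirror search, at most 3 counts in all 13 primary lines and 10 or more in at least 4 of the 7 metastatic lines, found 0 entries. The searches are not symmetric, because silence over 13 lines is a stricter demand than silence over 7.

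No single gene separated the origins. Of 14843 genes tested with edgeR's quasi-likelihood test, 0 (0%) passed an adjusted p of 0.05, and the smallest adjusted p was 0.230. At an unadjusted p under 0.05 there were 1147 genes (7.73%), of which 522 (3.52%) were higher and 625 (4.21%) lower in metastatic lines. Limma-voom also called 0 genes, whereas DESeq2 called 315 of 22153 (1.42%). No tested gene had all lines of 1 origin above all lines of the other (0, or 0%). The median standard error of a log2 difference was 0.387, and the middle of the genes ran from 0.284 to 0.690. Differences past 4-fold were more often downward among the 1147 genes, out of 14843 tested. Of the 625 lower genes, 326 were more than 4-fold lower, and of the 522 higher genes, 102 were more than 4-fold higher. Leaving out each line in turn, 383 of the 1147 kept an unadjusted p under 0.05 throughout, 277 lower and 106 higher. The primary group held more lines than the metastatic group. What part of the downward excess in these counts comes from the unequal group sizes was not tested. Without Mz-ChA-2 alone, 278 of the 1147 were lost.

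The genes of smallest p that were lower in metastatic lines began with BLNK, an adaptor that links the B cell receptor to downstream enzymes. BLNK had 1 count each in Mz-ChA-2 and NOZ and 0 in the other 5 metastatic lines, while primary lines ran from 0 CPM in HuH28 through a median of 2.49 to 46.5 in SNU-245. Pooled over lines, 2 counts in the metastatic group stood against 1384 in the primary group, a ratio of 386 with an exact 95% interval of 107 to 3187 that covers counting error only. The adjusted p was 0.230 by edgeR. At least 10 counts were found in 11 of the 13 primary lines, so the low lines HuH28 and TGBC2TKB overlapped the metastatic group.

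ANKRD6, known as diversin and a modulator of WNT signalling, was low across the metastatic group as well. Its levels there were 0.365 CPM in G415, 1.11 in HuCCT1, 1.94 in NOZ, 2.17 in OZ, 2.88 in OCUG-1, 3.10 in Mz-ChA-2 and 3.51 in Sk-ChA-1, and primary lines ran from 1.76 through a median of 17.3 to 86.0. The log2 difference was −3.58 ± 0.781 (SE; edgeR adjusted p = 0.273), and all 7 metastatic lines lay under the primary median. CNNM4, a magnesium transporter, ran from 12.8 to 32.8 CPM with a median of 17.9 in metastatic lines and from 14.4 to 164 with a median of 58.5 in primary lines. Its log2 difference was −1.71 ± 0.380 (SE; edgeR adjusted p = 0.273), and 3 metastatic lines lay under every primary line.

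KREMEN1, a co-receptor through which the secreted inhibitor DKK1 blocks WNT signalling, was low in all metastatic lines but 1 and was chosen after its values were seen. It measured 0.388 CPM in NOZ, 0.511 in G415, 0.545 in OCUG-1, 0.635 in Mz-ChA-2, 0.746 in Sk-ChA-1 and 1.45 in HuCCT1, but 12.02 in OZ. Primary lines ran from 2.28 in TKKK through a median of 23.1 to 196 in SNU-1196, so 6 of 7 metastatic lines lay under all 13 primary lines. With all lines the log2 difference was −4.11 ± 0.946 (SE; edgeR adjusted p = 0.273). Without OZ it was −5.80 and KREMEN1 became the 1 gene called (edgeR adjusted p = 0.0405). OZ is the 1 metastatic line that departs from the pattern, and the gene was chosen after its values were seen. The call without OZ therefore adds no separate support. SARM1, an enzyme that consumes NAD+ in injured axons and likewise chosen after its values were seen, had 5 of 7 metastatic lines under every primary line. It ran from 2.25 to 35.4 CPM (median 7.74) in metastatic lines and from 26.0 to 222 (median 57.7) in primary lines.

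Among genes higher in metastatic lines, NEXN, an actin-binding protein, had the smallest p. It measured 29.5 CPM in G415, 27.6 in OCUG-1, 26.9 in Mz-ChA-2, 13.1 in HuCCT1 and 11.5 in NOZ, but 1.19 in Sk-ChA-1 and 1.00 in OZ. Primary lines ran from 0.0688 through a median of 0.962 to 5.16, so 5 metastatic lines exceeded every primary line. NEXN differed by 3.62 on the log2 scale, as metastatic minus primary, with an SE of 0.706, and did not pass (edgeR adjusted p = 0.230).

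TRPV2, a calcium-permeable channel, followed the gallbladder label within the metastatic group. It measured 248 CPM in NOZ, 240 in G415, 136 in OCUG-1 and 17.9 in Mz-ChA-2, all gallbladder lines, and 0.596, 0.334 and 0 in HuCCT1, OZ and Sk-ChA-1. No primary line exceeded 4.01 CPM. The log2 difference was 6.10 ± 1.21 (SE; edgeR adjusted p = 0.230), but −2.22 among lines outside the gallbladder. TNFSF4, the OX40 ligand that costimulates T cells, measured 36.8 CPM in NOZ, 23.5 in Mz-ChA-2 and 14.2 in G415, and 0.584 to 1.62 in the other 4 metastatic lines. Primary lines ran from 0 through a median of 0.550 to 2.02, and the log2 difference was 3.93 ± 0.800 (SE; edgeR adjusted p = 0.230).

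TNFRSF6B, or decoy receptor 3, is a secreted receptor that binds FAS ligand and related death ligands; it was chosen after its values were seen. It measured 418 CPM in OZ, 265 in NOZ, 148 in G415, 114 in HuCCT1, 95.2 in OCUG-1 and 48.0 in Sk-ChA-1, but 3.57 in the liver-derived Mz-ChA-2. Primary lines ran from 0.894 through a median of 7.82 to 52.98, so the ascites lines were high apart from Sk-ChA-1, which lay inside the primary range. The log2 difference was 3.62 ± 0.735 over all lines (SE; edgeR adjusted p = 0.230) and 3.83 ± 0.678 for ascites lines against primary lines (edgeR adjusted p = 0.197), where it had the smallest p of 15069 genes. In that comparison 0 genes (0%) passed and 1481 (9.83%) had an unadjusted p under 0.05; limma-voom called 1. With gallbladder site as a covariate the TNFRSF6B difference was 4.04 (edgeR adjusted p = 0.490), and 920 genes (6.2%) had an unadjusted p under 0.05. The readthrough transcript entry RTEL1-TNFRSF6B shares exons with it and cannot be counted apart. That entry ran from 75.1 to 551 CPM in metastatic lines and from 10.7 to 164 in primary lines.

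**Figure D2:**
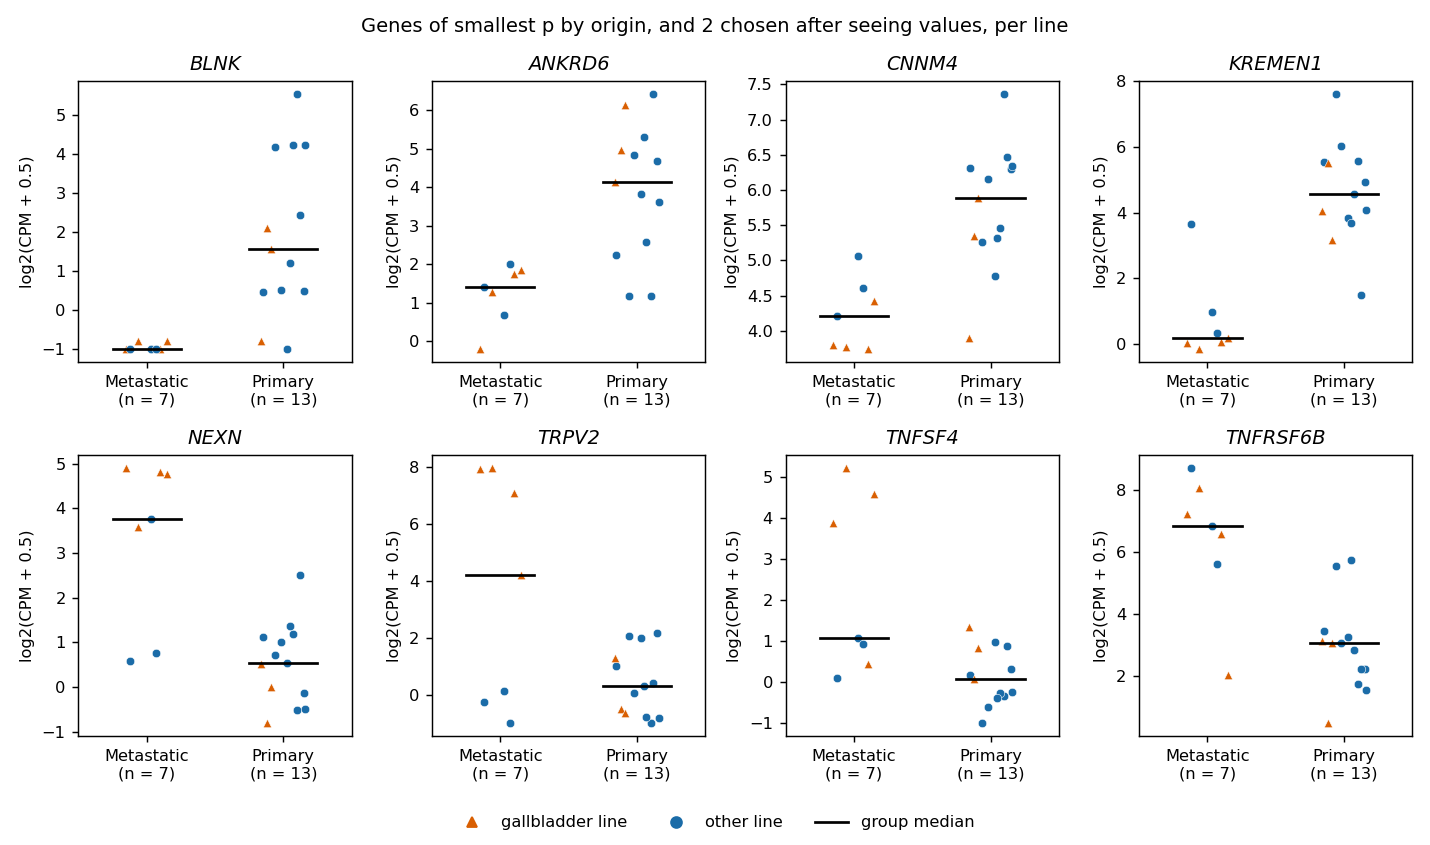
Level of 8 genes in each line as log2(CPM + 0.5) (vertical axes) by origin; triangles are gallbladder lines, circles other lines and bars group medians. BLNK sits at the bottom of the scale in all 7 metastatic lines, KREMEN1 is low in 6 of 7, and the metastatic lines that are high for TRPV2 are the 4 gallbladder lines.

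Genes of epithelial identity almost all had a negative difference, though not every metastatic line was low and few members passed even an unadjusted threshold. Of 33 markers tested, 32 had a negative log2 difference and 1 a positive one, with a median of −1.20, against 7068 positive and 7775 negative and a median of −0.02 over all genes. At an unadjusted p under 0.05 there were 0 higher and 3 lower members, beside 4.21% of all genes lower, and 0 were called. Those 3 were GRHL1, a grainyhead transcription factor (−1.79 ± 0.640, SE), the ion transport regulator FXYD3 (−4.51 ± 1.694) and the splicing regulator ESRP2 (−1.33 ± 0.508). The 1 positive member was KRT19, a duct cytokeratin (0.22 ± 0.796). The median stayed between −1.79 without OZ and −1.01 without OCUG-1 as each line was left out, and it was −1.02 without Mz-ChA-2, −1.31 without HuH28 and −1.09 with SNU-245 left out beside both. By line, the mean log2 level of the list relative to the mean over lines had medians of −1.88 (metastatic) and 1.80 (primary). The metastatic lines OZ (1.56) and HuCCT1 (1.39) lay near that primary median. The primary lines HuH28 (−5.22), SNU-1079 (−2.03) and TGBC2TKB (−1.43) were low.

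GRHL1 measured 1.83 CPM in G415, 1.92 in OZ, 3.43 in Sk-ChA-1, 3.80 in NOZ, 6.15 in OCUG-1, 9.37 in HuCCT1 and 21.9 in Mz-ChA-2, all under the primary median of 22.1. FXYD3 measured 38.4 CPM in HuCCT1, 32.8 in OZ, 15.7 in Sk-ChA-1, 3.57 in NOZ, 0.0794 in Mz-ChA-2 and 0 in G415 and OCUG-1. All 7 lay under its primary median of 205, but the primary range of 0 to 932 contained them. The cell adhesion genes were more scattered. CDH1, which encodes E-cadherin, measured 0.701 CPM in OCUG-1, 0.949 in G415 and 5.05 in NOZ, but 119 in Mz-ChA-2, 232 in OZ, 270 in Sk-ChA-1 and 322 in HuCCT1. Primary lines ran from 1.75 in SNU-1079 and 4.98 in HuH28 through a median of 609 to 907. Its log2 difference, −1.82 with a 95% interval of −4.13 to 0.50, did not pass (edgeR adjusted p = 0.723). In the RIKEN and HSRRB lines, with repository as a covariate, EPCAM and ESRP1 had differences of 0.35 and 0.0218 in place of −1.54 and −1.57 over all lines. The 1 primary line from HSRRB was HuH28, whose epithelial list level (−5.22) was the lowest of all lines. These 2 values therefore do not show what repository does to the epithelial difference.

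**Figure D3:**
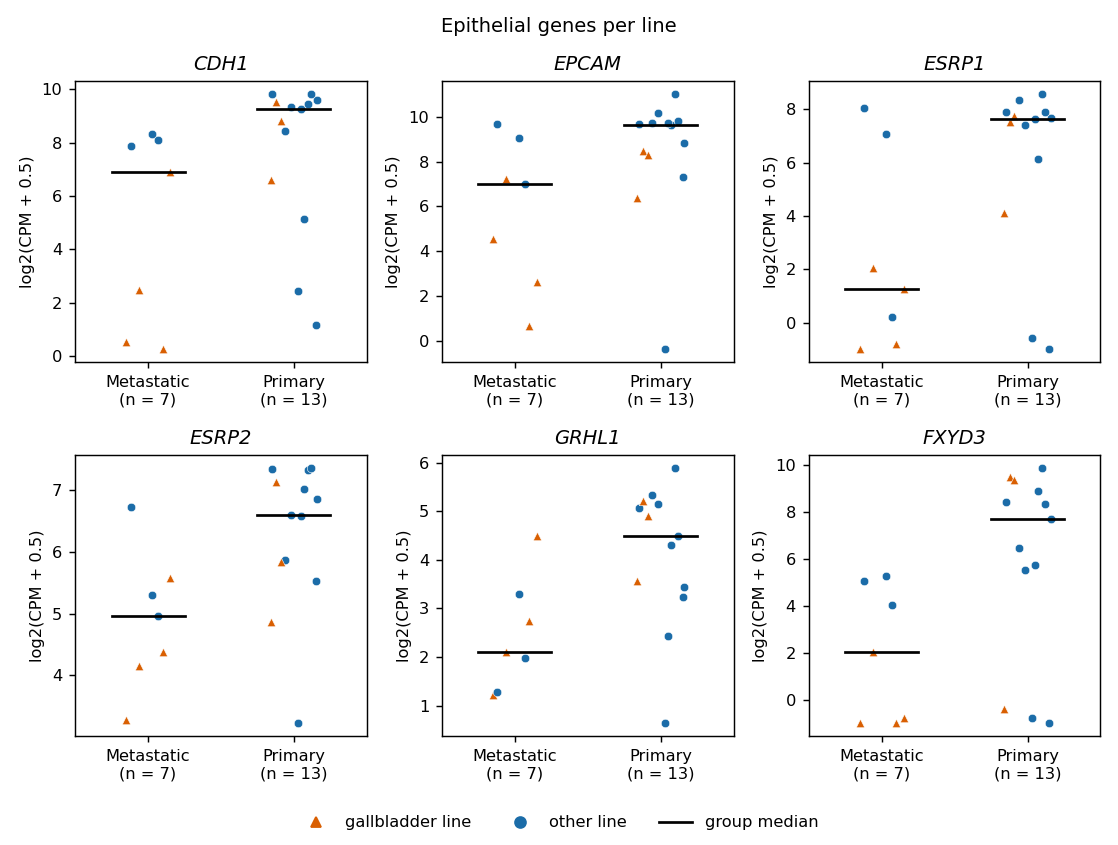
Level of 6 epithelial genes in each line as log2(CPM + 0.5) (vertical axes) by origin; triangles are gallbladder lines, circles other lines and bars group medians. The lowest metastatic values of CDH1 and ESRP1 belong to gallbladder lines, and HuH28 and SNU-1079 are low among primary lines.

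The epithelial differences were larger in size among the gallbladder lines. In the 7 gallbladder lines alone all 33 markers were lower in the metastatic lines, with a median of −3.25, and 16 had an unadjusted p under 0.05 beside 4.16% of all genes. In the 13 lines from other sites 27 were lower and 6 higher, with a median of −0.38, and 1 lower member had an unadjusted p under 0.05 beside 2.32%. The difference between the 2 contrasts was tested gene by gene as an interaction of origin with site. It was negative for 32 of 33 markers, with a median of −2.94 against 0.13 over all genes, and 10 markers had an unadjusted p under 0.05 beside 754 genes (5.08%) in all. None of the 33 passed the adjusted threshold. CDS1, a phospholipid enzyme with epithelial expression, ran from 0.0730 to 6.38 CPM in the 4 metastatic gallbladder lines and from 23.4 to 85.6 in the 3 primary ones, while outside the gallbladder the ranges were 6.49 to 60.2 and 2.01 to 147. ST14, the membrane protease matriptase, ran from 0.146 to 17.7 and from 42.1 to 248 CPM in gallbladder lines, and from 201 to 705 and 0.262 to 1076 elsewhere.

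Interferon-response genes had opposite signs by site, and this rested on 1 line. Over all lines 6 of 24 were higher and 18 lower, with a median of −0.22, and 0 had an unadjusted p under 0.05; without Mz-ChA-2 12 were higher and 12 lower. Within gallbladder lines all 22 tested members were lower in metastatic lines (median −2.67), and outside the gallbladder 23 of 24 were higher (median 0.89). Without the primary gallbladder line TGBC14TKB, 14 of the 22 were higher and 8 lower (median 1.04), and the interaction median went from −3.64 to 0.29. The epithelial list kept its sign in the same test: without TGBC14TKB its gallbladder median was −2.36, with 30 of 33 lower, and its interaction median −2.67. Leaving out each of the 7 gallbladder lines, the epithelial gallbladder median ran from −3.92 to −2.36, and it was −3.58 without Mz-ChA-2. None of the members of either list passed the adjusted threshold for the interaction.

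One gene did pass that threshold. PTPRU, a receptor-type tyrosine phosphatase, was called for the interaction (log2 −5.41 ± 0.754, SE; edgeR adjusted p = 0.0130), and it was 1 of 14843 genes (0.00674%). It measured 1.39 CPM in G415, 2.62 in Mz-ChA-2, 4.52 in OCUG-1 and 10.5 in NOZ, the metastatic gallbladder lines, a mean of 4.75 ± 4.03 (SD, n = 4). The 3 primary gallbladder lines averaged 144 ± 137 (SD, n = 3) and none was under 55.3. Outside the gallbladder the metastatic lines averaged 150 ± 29.4 (SD, n = 3) and the primary lines 107 ± 29.2 (SD, n = 10). The 4 low lines therefore did not overlap with any of the other 16, whose lowest value was 55.3 CPM. PTPRU was picked by the interaction test on these same lines, so this gap adds no separate support. How many other genes set these 4 lines apart was not counted. The interaction size ran from −6.15 to −4.30 as each line was left out, but the call was lost without Mz-ChA-2, OCUG-1, OZ or TGBC14TKB (edgeR adjusted p = 0.0639, 0.0856, 0.0559 and 0.0501). Over the 20 such fits the adjusted p ran from 0.00192 to 0.0856. PTPRU was not called by limma-voom (adjusted p = 0.0754) or without the ampullary lines (edgeR adjusted p = 0.113), whereas DESeq2 called it and 96 other genes. ZSWIM5 (−8.25), the stress keratin KRT16 (−8.52), the secreted protease inhibitor SLPI (−9.36) and the ligand WNT4 (−7.09) came next by p and did not pass (edgeR adjusted p from 0.254 to 0.333).

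**Figure D4:**
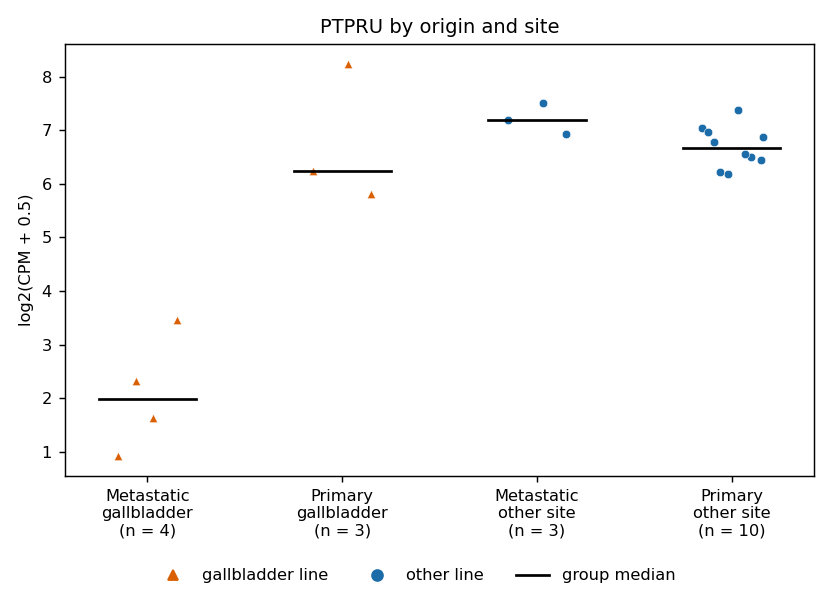
Level of PTPRU in each line as log2(CPM + 0.5) (vertical axis) by origin and site; triangles are gallbladder lines, circles other lines and bars group medians. The 4 metastatic gallbladder lines, at 1.39 to 10.5 CPM, lie below the other 16 lines.

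Genes switched on by MAPK signalling, the RAS to ERK cascade that growth factor receptors drive, were mostly higher in metastatic lines. Of 16 tested, 13 had a positive log2 difference and 3 a negative one, with a median of 0.93, and 5 were higher and 0 lower at an unadjusted p under 0.05, beside 3.52% and 4.21% of all genes. None was called. ETV1, an ETS factor downstream of the cascade, measured 111 CPM in NOZ, 75.4 in G415, 59.3 in OCUG-1, 52.7 in OZ, 48.7 in Mz-ChA-2, 15.8 in Sk-ChA-1 and 12.8 in HuCCT1. Primary lines ran from 0.169 through a median of 4.98 to 21.6 in SNU-308, so 5 metastatic lines exceeded all of them. On the log2 scale the ETV1 difference was 3.15 ± 0.757 (SE; edgeR adjusted p = 0.273).

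The Sprouty proteins are feedback inhibitors that the cascade induces. SPRY4 measured 417 CPM in OZ, 248 in Mz-ChA-2, 247 in G415, 237 in NOZ, 82.8 in HuCCT1, 55.6 in Sk-ChA-1 and 38.9 in OCUG-1, and primary lines ran from 3.70 through a median of 16.2 to 167. All 7 metastatic lines lay above the primary median, and the log2 difference was 2.41 ± 0.652 (SE; edgeR adjusted p = 0.371). SPRY2 was likewise above its primary median in all 7 lines (1.66 ± 0.534, SE). The phosphatase gene DUSP5 was too (1.78 ± 0.797), with 584 CPM in Mz-ChA-2 and a difference of 0.81 without that line. FOSL1, an AP-1 subunit, was the fifth member (1.60 ± 0.769). The list median was 0.69 without Mz-ChA-2, with 4 members higher at an unadjusted p under 0.05, and 0.64 with HuH28 and SNU-245 left out as well. Its value was 1.53 among gallbladder lines and 0.23 among lines from other sites, where SPRY2 and DUSP5 had differences of −0.02 and −0.20.

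**Figure D5:**
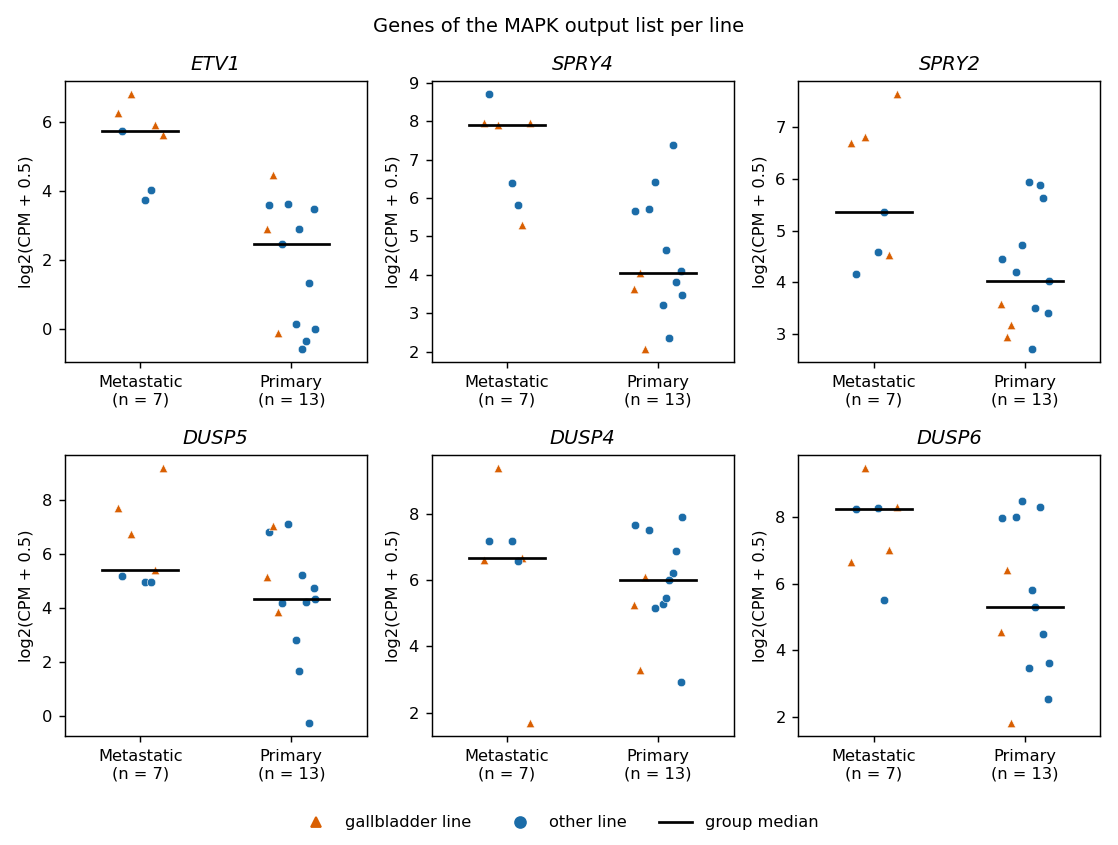
Level of 6 genes of the MAPK output list in each line as log2(CPM + 0.5) (vertical axes) by origin; triangles are gallbladder lines, circles other lines and bars group medians. All 7 metastatic lines lie above the primary median for ETV1, SPRY4, SPRY2 and DUSP5, while DUSP4 is lowest in Mz-ChA-2, at 2.70 CPM.

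WNT target genes were mostly lower. Of 16 tested, 12 were lower and 4 higher, with a median of −1.71, and 5 were lower and 1 higher at an unadjusted p under 0.05, beside 4.21% and 3.52% of all genes. The 5 were AXIN2, a feedback inhibitor of the pathway (−2.99 ± 1.01, SE), the ubiquitin ligase gene ZNRF3 (−1.37 ± 0.460), the secreted WNT deacylase gene NOTUM (−4.58 ± 1.60), the transcription factor gene LEF1 (−4.13 ± 1.57) and SP5 (−2.73 ± 1.18). AXIN2 ran from 0.584 CPM in G415 to 14.9 in OZ in metastatic lines, all under the primary median of 24.6, and primary lines reached 238 in SNU-245. The exception was PROX1, a developmental transcription factor (3.72 ± 1.37, SE), at 335 CPM in Mz-ChA-2; without that line 0 WNT targets were higher at an unadjusted p under 0.05 and 4 were lower. The list median was −0.35 among gallbladder lines and −1.31 elsewhere, and it ran from −2.05 to −1.19 as each line was left out. The mean log2 level of the list, relative to the mean over lines, had a metastatic median of −0.68 and a primary median of 0.07. That level was highest in the primary lines SNU-1196 (2.41), SNU-245 (2.35) and SNU-869 (1.75), all from KCLB, a repository without metastatic lines. The remaining KCLB lines were not high: SNU-1079 lay at 0.14, SNU-478 at −0.27 and SNU-308 at −0.73, the lowest primary value. The other primary lines lay at 0.26 or below, and the highest metastatic line was OZ (0.91).

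Notch genes were mostly lower. Of 17 tested, 13 were lower and 4 higher, with a median of −0.37. At an unadjusted p under 0.05, 3 were higher and 3 lower, beside 3.52% and 4.21% of all genes, and none was called. With gallbladder as a covariate 0 were higher and 5 lower at such a p, beside 6.2% of all genes in both directions together. The ligand gene JAG2 measured 11.9 CPM in Mz-ChA-2, 13.8 in NOZ, 15.6 in G415, 25.7 in OCUG-1, 31.4 in OZ, 39.5 in Sk-ChA-1 and 44.7 in HuCCT1. Its primary median was 115 and its range 2.80, in HuH28, to 325. The log2 difference was −2.16 ± 0.591 (SE; edgeR adjusted p = 0.377). The receptor gene NOTCH3 was under 10 CPM in 6 of 7 metastatic lines, with 84.4 in Mz-ChA-2, against a primary median of 95.7 and a range of 0.0874 to 504 (−3.39 ± 1.28, SE). The ligand gene DLL1 was the third lower member with an unadjusted p under 0.05 over all lines (−3.72 ± 1.44). The 3 higher members with such a p each rested on 1 line. The receptor NOTCH4 (1.72 ± 0.642) was at 10.2 CPM in NOZ and differed by 0.79 without it. The ligand JAG1 (1.68 ± 0.736) was at 2238 CPM in Mz-ChA-2 and differed by −0.11 without it. The ligand DLL3 (2.49 ± 1.17) was at 28.1 CPM in G415 and differed by 0.86 without it.

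Matrix-degrading genes held 4 higher and 2 lower members of 21 at an unadjusted p under 0.05, beside 3.52% and 4.21% of all genes. The collagenase gene MMP1 rested on OCUG-1, at 4239 CPM, with 156 in NOZ, 128 in HuCCT1 and 0.159 to 5.89 in the other 4 metastatic lines, against 0 to 53.7 in primary lines. Its log2 difference was 6.20 with all lines and 2.47 at its lowest as each line was left out. PLAUR, the receptor of the plasminogen activator urokinase (1.42 ± 0.586, SE), PLAU, urokinase itself (2.41 ± 1.11), and TIMP1, a metalloprotease inhibitor (1.21 ± 0.474), were the others. TIMP1 exceeded every primary line in 4 metastatic lines. The lower members were MMP15 (−1.25 ± 0.520) and the gelatinase gene MMP2, whose difference of −9.20 came from 3840 CPM in HuH28 and 1410 CPM in TGBC2TKB, both primary. The other 11 primary lines lay at 2.51 CPM or below, beside 0.146 to 1.87 CPM in metastatic lines. The metastatic median of MMP2 was 0.2503 CPM and the primary median 0.160, levels that rest on very few counts. With DESeq2 the MMP2 difference was 0.58, and without HuH28 the gene did not pass the filter on low counts.

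The balance of the mesenchymal list depended on HuH28. With all lines 9 of 19 members were higher and 10 lower (median −0.44), and the 3 lower members with an unadjusted p under 0.05, beside 4.21% of all genes, were MMP2 and the collagens COL1A1 and COL5A1, at 8139 and 3425 CPM in HuH28. Without HuH28, 14 of 17 were higher and 3 lower (median 0.99), and 4 higher and 2 lower members had an unadjusted p under 0.05. The collagen differences without it were −4.35 for COL1A1 and −7.21 for COL5A1, with the primary lines SNU-1079 and TGBC2TKB at 4162 and 2067 CPM of COL1A1. Cell cycle genes were mostly higher, 22 of 27, at small size (median 0.45). The 4 with an unadjusted p under 0.05 were UBE2C (0.87 ± 0.345, SE), FOXM1 (0.85 ± 0.338), CCNB1 (0.81 ± 0.354) and TYMS (0.78 ± 0.375), beside 3.52% of all genes; with gallbladder as a covariate 0 had such a p. Their list median was 0.81 among gallbladder lines and −0.01 among the others.

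ERBB2, the HER2 receptor that is a drug target in biliary cancer, ran from 35.2 CPM in Mz-ChA-2 to 250 in OZ in metastatic lines. All 7 lay under the primary median of 272, and primary lines reached 1458 in TGBC18TKB and 2244 in TKKK. For ERBB2 the log2 difference was −1.83 ± 0.645 (SE; edgeR adjusted p = 0.509). The related receptor gene EGFR differed by 0.69 and did not pass. The surface mucin gene MUC1 measured 4.05 CPM in Mz-ChA-2, 7.76 in NOZ, 9.01 in OZ, 28.7 in OCUG-1, 39.6 in HuCCT1, 47.0 in G415 and 128 in Sk-ChA-1, against 33.9 to 685 in primary lines (median 242), a log2 difference of −2.73 ± 0.803 (SE; edgeR adjusted p = 0.420). PMAIP1, which encodes the pro-apoptotic protein NOXA, exceeded every primary line in 5 metastatic lines (1.52 ± 0.445, SE; edgeR adjusted p = 0.420). KISS1, named for suppressing metastasis, had a difference of 4.04 that rested on 179 CPM in G415; without that line it was 0.34. All 9 tested genes of the MHC class II pathway, which presents antigen to helper T cells, were lower (median −1.54). Of them 2, HLA-DMA and HLA-DMB, had an unadjusted p under 0.05, beside 4.21% of all genes. The median was −0.82 without the primary line SNU-869 and −2.43 without OCUG-1, and the mean log2 level of the list had group medians of −0.33 and −0.13 relative to the mean over lines.

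Markers of cells that could accompany ascites or a deposit were looked at in the same libraries. Leukocyte markers summed to 10.2 to 244 CPM over 19 genes in metastatic lines and 5.14 to 79.8 in primary lines. Mesothelial markers summed to 60.1 to 1286 CPM over 13 genes and to 35.2 to 1218. Fibroblast markers summed to 11.1 to 698 CPM over 10 genes and to 6.06 to 1290, the last in HuH28. The ranges overlapped in each case, and the part of other cells in the differences above was not tested. In a culture, fewer cells making a transcript and less of it per cell cannot be told apart.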

How the data were processed

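Counts per RefSeq entry were deposited by the authors as 1 table of raw counts; per the submitters' processing notes, reads were handled with Trimmomatic, TopHat2 2.0.8, Picard 1.69 and featureCounts on GRCh37 (hg19). No source used here gives the annotation release or the strand setting of the counting. Of 24222 entries, 23512 took a symbol from a RefSeq table and 355 from GENCODE; the remaining 355 held 0.484% of counts. Near-identical copies (335 numbered entries), overlapping and antisense genes may share reads. Totals were 10469013 to 15414668 counts per line, which put 3 counts at 0.195 to 0.287 CPM. Levels below that are printed as computed and rest on very few counts.

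Origin was tested with edgeR 4.0.16 (TMM scaling, filterByExpr, robust quasi-likelihood test, Benjamini-Hochberg adjustment, R 4.3.3) over all 20 lines; 9379 entries fell to the filter. Reported differences are metastatic minus primary, on the log2 scale. Alternatives were limma-voom 3.58.1, DESeq2 1.42.0, other scaling and filters, gallbladder or repository as a covariate, subsets of lines and each line left out. Library measures were compared by exact permutation. The script for the gene-wise fit was tested on simulated data. The comparison and the gene lists were chosen with earlier results of these data known. Named genes were the 3 of smallest p in each direction, the first 3 and the 4 of smallest p in each list described, the first 5 of the interaction, and those extreme in Mz-ChA-2; others are said to be chosen after their values were seen, as were the remaining members printed because they had an unadjusted p under 0.05 and CDS1 and ST14. Some items are not reported here. No genome coordinates or sequences are given.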

Additional observations from a re-analysis of the deposited data

Results flagged for a closer look

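DUSP4, a phosphatase of the MAPK output list, was at 2.70 CPM in Mz-ChA-2, far below the other 6 metastatic lines (95.03 to 668 CPM). KREMEN1 was at 12.02 CPM in OZ, far above the other 6 metastatic lines (0.388 to 1.45 CPM). Chance sets 1 line apart in this way in about 1 of 20 groups, and 75 named genes were examined. The difference by origin in PTPRU was not the same in gallbladder lines as in other lines (log2 interaction −5.41, edgeR adjusted p = 0.0130). It was not called by limma-voom (adjusted p = 0.0754) or by edgeR without the ampullary lines (adjusted p = 0.113).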

How the results depend on the processing

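The count of genes called for origin was 0 with edgeR and 315 with DESeq2, and 0 to 1 as each line was left out. The count at an unadjusted p under 0.05, 1147 of 14843, became 2232 of 22153 with DESeq2 and 586 of 15661 in lines outside the gallbladder. It was 2913 with no filter on low counts, where more genes were tested. For ascites lines limma-voom called 1 gene. For the interaction of origin with site the 1 call, of 14843 genes, became 0 with limma-voom and 0 without ampullary lines. It became 97 with DESeq2, which was run without the filter on low counts, and 0 to 3 as each line was left out. The lower number of detected entries kept its direction and its p under 0.05 in all alternatives run (count minimums of 1 to 50, 1 CPM, thinning, exchanges within site or repository, each line left out), but within a single site label it was −1342 in gallbladder lines (exact permutation test, p = 0.0571) and −182 elsewhere (exact permutation test, p = 0.287). No paired analysis was possible because the replicate numbers only follow the order of the records. The cause of the differences between tools was not tested. Signs turned for some named genes, none of which was called. In lines outside the gallbladder, these were TRPV2 (−2.22), FN1 (−0.92), SPRY2 (−0.0165), DUSP5 (−0.20), CCNB1 (−0.0139), TOP2A (−0.0016), AKAP12 (−0.70), NME1 (−0.0061), NME2 (−0.0597), CD82 (0.10), KRT7 (0.30) and SOX9 (−0.23). In gallbladder lines alone, these were CDH2 (6.14), NOTCH1 (0.25), NOTCH2 (0.66), ERBB3 (0.58), TSPAN8 (1.997) and KRT19 (−1.90). With gallbladder as a covariate it was CDH2 (1.75). With repository as a covariate they were CDH2 (3.08), NOTCH1 (0.50), NOTCH2 (0.14), BCL2L14 (0.55) and BCL2 (0.84). In RIKEN and HSRRB lines, where HSRRB gave 1 primary line (HuH28), they were EPCAM (0.35), ESRP1 (0.0218), VIM (−1.41), FN1 (−0.15), NOTCH1 (0.42), EPHA1 (0.85), BCL2 (0.28), DLC1 (−0.21), CD82 (0.55) and KRT7 (0.40). With DESeq2 they were MMP2 (0.58) and CDH2 (0.98), and with limma-voom CDH2 (1.59), NOTCH2 (0.13) and AKAP12 (−0.10). As each line was left out, CDH2 ran from −2.06 to 0.93, KRT19 from −0.71 to 0.43 and NOTCH2 from −0.46 to 0.33.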
